A study of Mus musculus with 4 samples.

Results

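Germline and meiosis genes were examined in mouse embryonic stem cells (ESCs) in which the m6A reader YTHDF2 had been knocked down. The group holds 44 genes of the 49997 listed in the count table. They were picked by name for their known work in germ cells, with the values of these same libraries already known, so their differences between the groups are given as a description and not as a test of the group. They were sorted by role into 9 genes of the meiotic axis and synaptonemal complex, 8 of meiotic recombination, 9 of germ cell identity and meiotic entry, 12 of the piRNA pathway and 6 expressed during spermatogenesis. All 44 were found in the table.

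The cells were ESCs of the E14 line, kept on gelatin with serum replacement and leukemia inhibitory factor. Per the study they carried a tdTomato reporter driven by the promoter of the retrotransposon MERVL. There were 2 libraries from cells with a scrambled hairpin (shScramble) and 2 from cells with a hairpin against Ythdf2 (shYthdf2, called Ythdf2-KD). Per the study's methods the hairpins were brought in by lentivirus, both groups were held as stable lines under puromycin, and the replicates were independent. Those methods list a pair of hairpins against Ythdf2, and the labels do not say which was used here.

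Meiosis is the paired division by which germ cells become haploid. Cohesin complexes with meiosis-specific subunits hold each chromosome along a protein axis, the synaptonemal complex joins the homologous axes, and recombination repairs programmed breaks between them. The piRNA pathway guards this program with small RNAs bound to PIWI proteins that silence transposons. In ESCs and somatic cells many germline genes are held silent by promoter DNA methylation and by the polycomb complex PRC1.6, whose MGA, MAX and E2F6 subunits recognise E-box and E2F motifs. YTHDF2 binds mRNAs that carry N6-methyladenosine and brings them to decay.

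Each library held between 31113006 and 36422510 counted reads, and 3 reads, taken as the limit for a gene with no read, were worth 0.083 to 0.095 CPM (reads scaled to a common library total, with TMM factors). Ythdf2 itself stood at 93.4 and 87.5 CPM in the shScramble libraries and at 31.7 and 30.2 CPM in the shYthdf2 libraries, 34.2% of the control level (log2 fold change -1.55, SE 0.11, edgeR adjusted p = 0.00069, 18341 genes tested). The ESC markers chosen for the check, among them Pou5f1, Sox2 and Nanog, summed to 6238 and 5808 CPM in shScramble and to 5942 and 5427 CPM in shYthdf2, so the libraries carried the labelled cell type. Their median log2 fold change was -0.05 and the lowest was -0.47. Of the 10, all tested, 1 was lower at an edgeR adjusted p below 0.05, as were 1.49% of all tested genes. The fibroblast markers summed to 17.3 and 17.8 CPM in shScramble and to 9.41 and 15.7 CPM in shYthdf2, with Dcn at 0 reads in each library.

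Promoter sequences of members are shown here because silencing of germline genes in ESCs is known to act through promoter motifs. RefSeq windows on the GRCm38.p6 build, from 250 bases before to 50 bases after a start site, were matched to 36 of the 44 genes. The 8 without a window were Dmrt1, Dnd1, Meiob, Piwil2, Rnf17, Spo11, Tex11 and Tex15. The windows were searched on both strands for the E-box CACGTG, which reads the same on either strand, and for the E2F motif as TTCCCGC or GCGGGAA, which are each other's reverse complement. The 5 windows below run 5′ to 3′ in the direction of transcription, with the E-box and E2F matches in capitals. Stag3 and Sycp1 passed the test as lower in Ythdf2-KD cells and hold a match, Hormad1 holds the most matches of these 5 and did not pass, and Usp26 and Tdrd12, which passed as lower and higher, hold none.
Stag3, chr5:138280259-138280558, plus strand: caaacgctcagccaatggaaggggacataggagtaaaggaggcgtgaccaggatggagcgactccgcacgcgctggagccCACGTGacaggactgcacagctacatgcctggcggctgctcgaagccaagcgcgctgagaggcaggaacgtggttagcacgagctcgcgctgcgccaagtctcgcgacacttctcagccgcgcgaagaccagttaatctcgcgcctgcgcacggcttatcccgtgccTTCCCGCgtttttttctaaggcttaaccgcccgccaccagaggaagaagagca
Sycp1, chr3:102936051-102936350, minus strand: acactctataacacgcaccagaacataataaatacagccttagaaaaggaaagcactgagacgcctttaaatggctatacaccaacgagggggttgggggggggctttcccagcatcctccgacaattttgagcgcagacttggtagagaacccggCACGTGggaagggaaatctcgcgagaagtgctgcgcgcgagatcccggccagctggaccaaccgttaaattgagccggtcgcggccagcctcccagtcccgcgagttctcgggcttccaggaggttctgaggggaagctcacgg
Hormad1, chr3:95559427-95559726, plus strand: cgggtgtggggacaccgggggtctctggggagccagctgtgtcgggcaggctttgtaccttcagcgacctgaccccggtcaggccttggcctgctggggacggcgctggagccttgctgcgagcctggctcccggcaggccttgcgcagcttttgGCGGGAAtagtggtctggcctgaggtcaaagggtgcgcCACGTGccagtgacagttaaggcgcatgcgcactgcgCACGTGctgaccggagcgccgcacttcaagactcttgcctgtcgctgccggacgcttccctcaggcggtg
Usp26, chrX:51801184-51801483, minus strand: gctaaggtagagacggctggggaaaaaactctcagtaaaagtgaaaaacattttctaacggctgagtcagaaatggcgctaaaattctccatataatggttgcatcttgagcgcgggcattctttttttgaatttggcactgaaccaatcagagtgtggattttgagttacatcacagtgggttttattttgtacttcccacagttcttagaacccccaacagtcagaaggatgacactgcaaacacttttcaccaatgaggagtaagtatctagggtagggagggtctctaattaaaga
Tdrd12, chr7:35537666-35537965, minus strand: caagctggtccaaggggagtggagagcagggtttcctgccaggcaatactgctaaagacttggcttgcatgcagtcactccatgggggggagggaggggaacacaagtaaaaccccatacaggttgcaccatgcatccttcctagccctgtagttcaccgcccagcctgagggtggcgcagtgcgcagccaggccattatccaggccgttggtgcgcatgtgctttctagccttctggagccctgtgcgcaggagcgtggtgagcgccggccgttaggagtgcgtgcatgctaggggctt

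The Stag3 window holds an E-box 170 bases before its start site and an E2F match 3 bases before it. The RefSeq start used for it lies inside the span over which the reads of Stag3 were counted, which begins at position 138272514. The Sycp1 window has its E-box 94 bases before the start. Hormad1 carries E-boxes 20 and 57 bases before its start and an E2F match 95 bases before it. CpG dinucleotides numbered 30 in the Stag3 window, 21 in Sycp1, 24 in Hormad1, 11 in Tdrd12 and 5 in Usp26.

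Among the 36 members with a window, 15 (41.7%) held an E-box and 9 (25.0%) held an E2F match. Over all 27025 genes with a window the shares were 8.09% and 5.29%, and over the 13085 of them that were tested here 11.1% and 9.03%. Among 65 other germline genes with a window, 16.9% held an E-box and 18.5% an E2F match. The E-box was found in 5 of the 10 called lower and in 10 of the other 26 (38.5%). A match is a description of the letters in these windows, and no binding was measured. The median number of CpG dinucleotides was 19.5 in the members and 20 in the tested genes.

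Most members were transcribed in these ESCs at levels that could be measured. Reads were found for all 44 genes, and 43 passed the filter on low counts. Spo11, the enzyme that makes the meiotic double-strand breaks, was the exception, with 2 reads in shYthdf2 replicate 1 and 0 in the other libraries. Per kilobase of exon, the median shScramble level of all 44 was 7.87 CPM, against 3.38 CPM over the tested genes. The highest levels per kilobase were those of Dazl at 102 CPM, Tex19.1 at 75.5, Sohlh2 at 73.5, Mael at 33.3, Stag3 at 26.1 and Rnf17 at 24.2. At the other end stood the recombination genes Mei1 at 0.115, Mei4 at 0.214 and Meiob at 0.296, with the tudor domain gene Tdrd1 at 0.252 and Tex101 at 0.348.

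**Figure D1:**
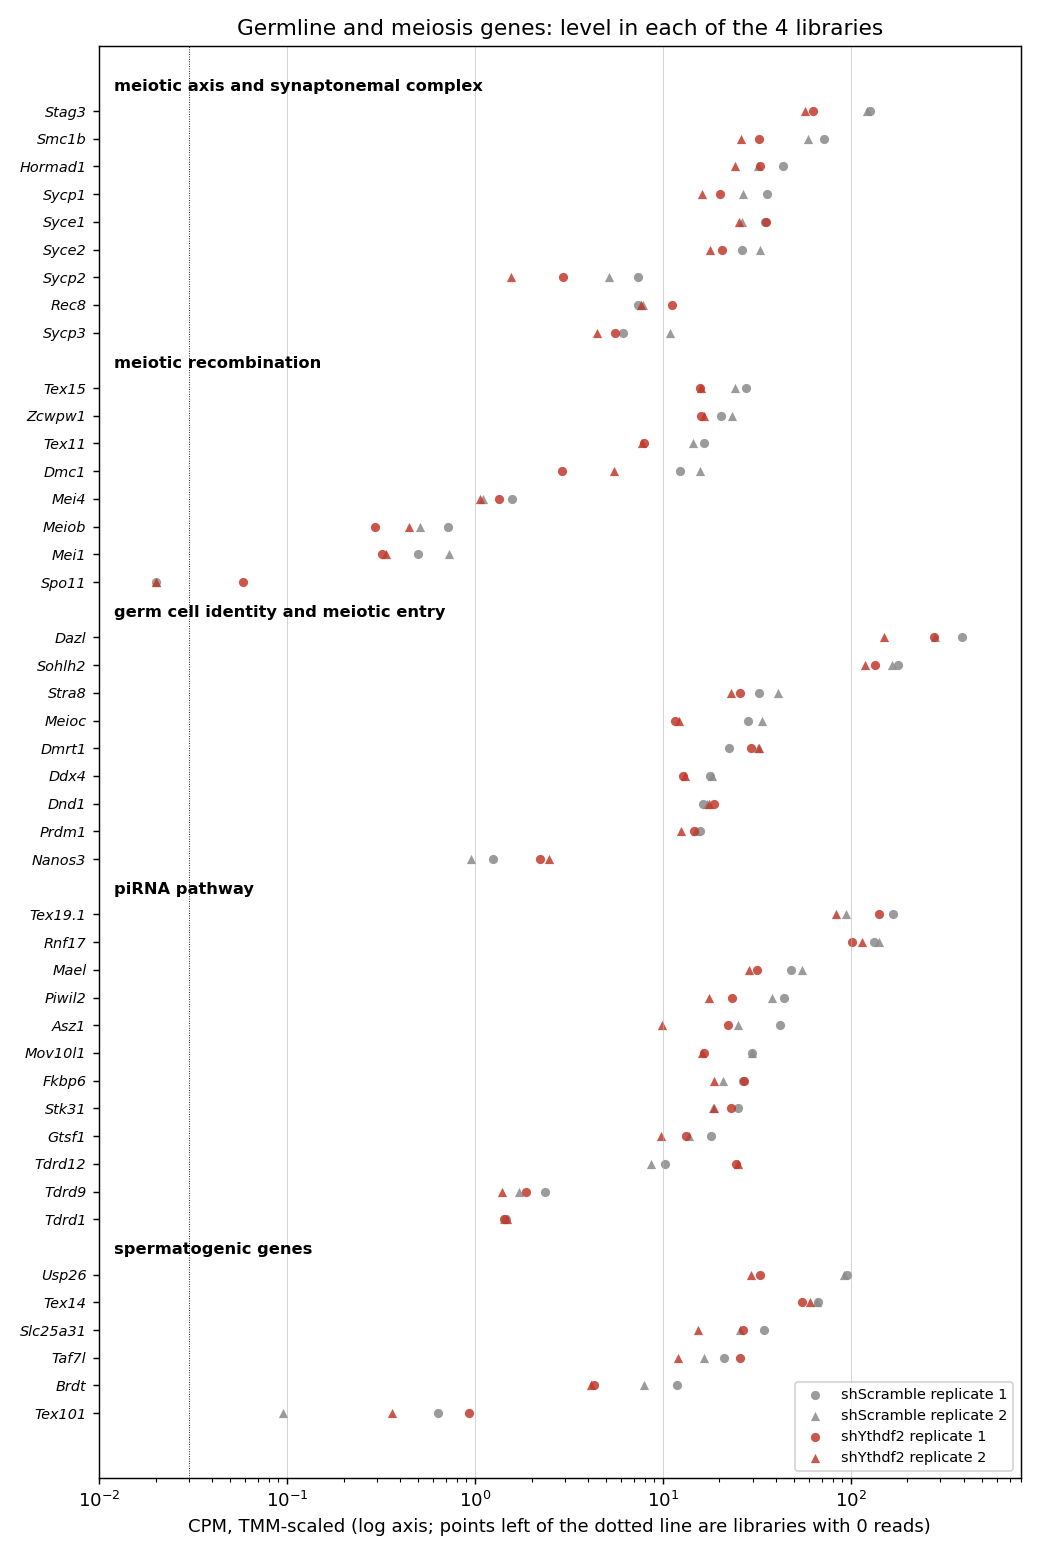
Level of each of the 44 genes in each library, as TMM-scaled CPM on a log axis, by role; grey marks are shScramble, red marks shYthdf2, circles replicate 1 and triangles replicate 2. Stag3, Smc1b, Dmc1, Meioc and Usp26 have both red marks well left of both grey marks, Tdrd12 has them to the right, and in Tex19.1 and Asz1 the circles and triangles lie far apart within a group.

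In Ythdf2-KD cells 13 members were lower and 1 was higher in edgeR's quasi-likelihood test (adjusted p below 0.05, adjusted across the transcriptome). In the whole transcriptome 1.49% of tested genes passed as lower, 2.43% as higher and 3.91% in either direction. Since the members were chosen with this contrast in view, nothing is read from the distance between these shares. At an unadjusted p under 0.05 there were 22 lower and 2 higher, where 9.80% and 11.0% of all tested genes lay under it. The median log2 fold change of the members was -0.66 without shYthdf2 replicate 1 and -0.39 without shScramble replicate 1. Of the 43 tested, 35 had a negative log2 fold change (81.4%, against 49.8% of all tested genes), with a median of -0.47 (0.00 over all tested genes, to 2 decimals) and a range from -1.73 for Dmc1 to 1.39 for Tdrd12. Both shYthdf2 libraries lay below both shScramble libraries in 27 members and above them in 3, where the shares of all tested genes were 25.5% and 26.2%. By the criteria of the study applied with DESeq2, an unadjusted p of at most 0.05 and at least a 2-fold change, 8 members were lower and 2 were higher, where 1.25% and 1.63% of all genes with a read met them. Summed over the 44 genes the level was 1926 and 1664 CPM in shScramble and 1369 and 1080 CPM in shYthdf2. RNA from a bulk culture was measured, so fewer cells with a transcript and less of it per cell cannot be told apart.

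**Figure D2:**
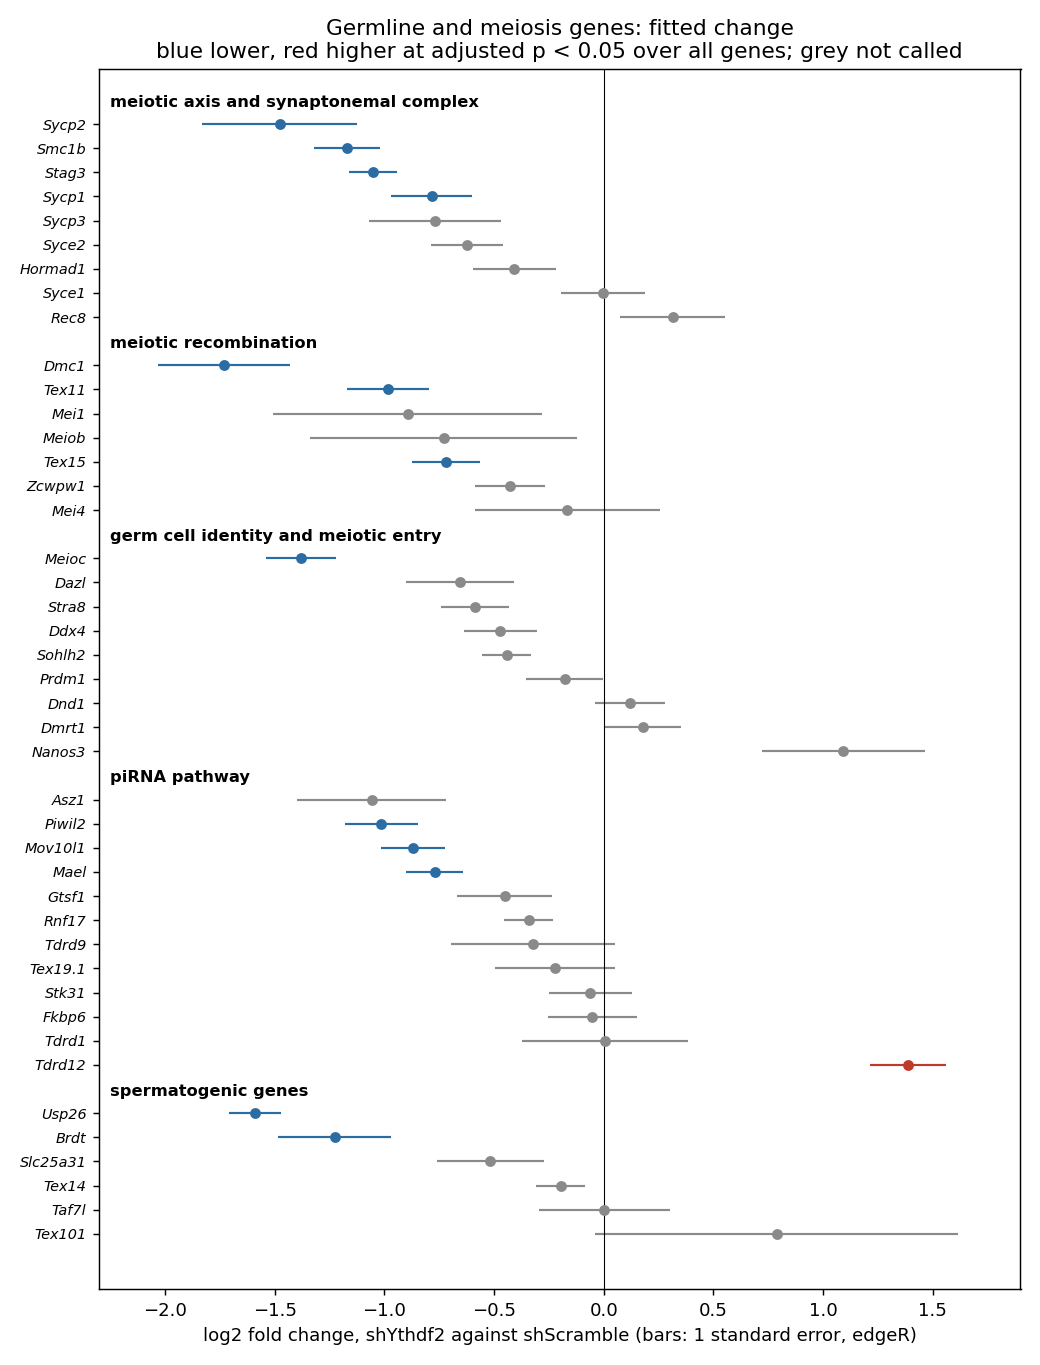
Fitted log2 fold change of shYthdf2 against shScramble for the 43 tested genes, by role, with 1 standard error as the bar; blue marks passed as lower, the red mark as higher, and grey marks did not pass. The 13 blue marks lie between -1.73 and -0.72 and are found under every role, and Tdrd12 at 1.39 is the red mark.

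The meiotic axis and synaptonemal complex had 4 of 9 members called lower, and the median log2 fold change of the 9 was -0.77. Cohesin came first. Stag3 (chromosome 5, 138272514 to 138312397, plus strand, mm10), a cohesin subunit used in meiosis, was read at 126 and 122 CPM in shScramble and 62.7 and 57.3 CPM in shYthdf2. The group means were 124 ± 3.04 and 60.0 ± 3.76 CPM (SD, n = 2), and the fitted log2 value was -1.05 (SE 0.11). An exon of Gal3st4 on the opposite strand overlaps Stag3, and counting ignored strand. Smc1b (chromosome 15, 85064689 to 85131957, minus strand), the meiotic form of an SMC subunit of cohesin, had 72.0 and 59.5 CPM in shScramble against 32.5 and 25.99 CPM in shYthdf2. The groups lay far apart, with a log2 fold change of -1.17 (SE 0.15). Rec8, the kleisin that closes the meiotic cohesin ring, was not called. It had 7.35 and 7.80 CPM in shScramble and 11.2 and 7.68 CPM in shYthdf2, and the second shYthdf2 library lay between the controls (0.31, SE 0.24).

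The proteins that zip the axes together showed the same split between called and uncalled members. Sycp1, the transverse filament of the synaptonemal complex, had 35.9 and 26.8 CPM in shScramble and 20.2 and 16.2 CPM in shYthdf2, a log2 fold change of -0.78 (SE 0.18). It no longer passed without shScramble replicate 1, where the log2 fold change was -0.55. Sycp2, of the lateral element, was low, with 266 and 163 reads in shScramble and 101 and 56 in shYthdf2. Its log2 fold change was -1.48 (SE 0.35), and the first library of each group was the higher one. Sycp3, its lateral element partner, had 222 and 345 reads in shScramble and 190 and 160 in shYthdf2, and its fitted value of -0.77 (SE 0.30) was not called. Among the other members, the central element genes Syce2 (-0.62) and Syce1 (-0.00) and the axis gene Hormad1 (-0.41) were not called. The shYthdf2 libraries were below both controls for Sycp3 and Syce2, and overlapped them for Hormad1 and Syce1. Exons on the opposite strand overlap Hormad1 (Gm40097) and Sycp3 (Chpt1).

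Of the 8 recombination genes, 7 were tested and 3 were called lower, with a median of -0.73 and no positive value. Dmc1 (chromosome 15, 79561497 to 79605159, minus strand), the recombinase that pairs broken DNA with the homolog, had 12.3 and 15.7 CPM in shScramble and 2.89 and 5.50 CPM in shYthdf2. This was the largest fall of any member, to 30.1% of the control level (log2 fold change -1.73, SE 0.30), and the 2 shYthdf2 libraries differed from each other by 0.93 on the log2 scale. Without shYthdf2 replicate 1 the value was -1.34 and without replicate 2 it was -2.27, and the call held in both. Tex11, an X-linked gene that promotes crossovers, had 16.6 and 14.5 CPM in shScramble and 7.95 and 7.76 CPM in shYthdf2 (-0.98, SE 0.19). Its libraries were close within each group. Tex15, needed to repair meiotic breaks, had 27.8 and 24.3 CPM against 15.7 and 16.0 CPM (-0.72, SE 0.15). It did not pass without shScramble replicate 1, with -0.62. Zcwpw1, a reader of the histone marks left by PRDM9 and the member of this role with the highest level per length, had 20.5 and 23.4 CPM in shScramble and 16.0 and 16.6 CPM in shYthdf2. The groups did not overlap, yet the value of -0.43 (SE 0.16) was not called, and Pilra has exons on its opposite strand. Mei1, Mei4 and Meiob, which act in forming or processing breaks, had from 10 to 57 reads per library and log2 fold changes of -0.89, -0.17 and -0.73, none called, with standard errors of 0.61, 0.42 and 0.61. Hagh overlaps Meiob on the same strand.

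Germ cell identity and meiotic entry had 1 of 9 members called lower, with a median of -0.44. That gene was Meioc (chromosome 11, 102665351 to 102682240, plus strand), whose protein keeps germ cells in the meiotic program together with YTHDC2. It had 28.3 and 33.6 CPM in shScramble and 11.6 and 12.1 CPM in shYthdf2. The means were 30.9 ± 3.72 and 11.9 ± 0.34 CPM (SD, n = 2), with a fitted log2 value of -1.38 (SE 0.16). The shYthdf2 libraries both lay under 13 CPM. Ythdc2 itself, not a member, stood at 0.04 on the log2 scale (SE 0.14, edgeR adjusted p = 0.91).

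Dazl, which encodes a germ cell RNA-binding protein, had the highest level per length of all members. It stood at 393 and 280 CPM in shScramble and 277 and 151 CPM in shYthdf2. The lower control library and the higher knockdown library were nearly equal, and the fitted value of -0.65 (SE 0.25) was not called. Dazl passed in 4 of 12 other fits, among them that with no filter and that with the replicate number as a block. It passed as lower without shScramble replicate 2 (-0.88) and without shYthdf2 replicate 1 (-1.16), and did not pass without shScramble replicate 1 (-0.39) or shYthdf2 replicate 2 (-0.28). Nanos3, which protects primordial germ cells, had 45 and 30 reads in shScramble and 76 and 89 in shYthdf2. Both knockdown libraries were above the controls at 1.09 (SE 0.37), which met the study's criteria in DESeq2 but was not called over all genes. Of the rest, Stra8, which starts meiosis, stood at -0.59, the germ cell helicase gene Ddx4 at -0.47, the transcription factor gene Sohlh2 at -0.44 and the germ cell specifier Prdm1 at -0.18. Both knockdown libraries lay below both controls in these 4, and none was called, though Sohlh2 passed in 8 of 12 other fits and Stra8 in 6, DESeq2 among them for both. Dnd1 at 0.12 and Dmrt1 at 0.18 were not called either, and Wdr55 overlaps Dnd1 on the opposite strand.

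The piRNA pathway held the one member called higher in edgeR. Of its 12 genes 3 were called lower and that 1 higher, with a median of -0.33. Piwil2, a PIWI protein that binds piRNAs, had 44.4 and 38.0 CPM in shScramble and 23.2 and 17.6 CPM in shYthdf2 (-1.01, SE 0.17). Mael, a germ granule gene of the same pathway, had 48.0 and 55.0 CPM against 31.5 and 28.8 CPM (-0.77, SE 0.13). Mov10l1, the helicase that hands piRNA precursors to processing, had 29.9 and 29.8 CPM against 16.5 and 16.2 CPM (-0.87, SE 0.14), the closest replicates of any called member. In all 3 genes the groups were separate.

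Tdrd12 (chromosome 7, 35466941 to 35537784, minus strand), a tudor domain protein needed for secondary piRNAs, ran the other way. It had 10.3 and 8.63 CPM in shScramble and 24.4 and 25.2 CPM in shYthdf2, so that the means rose from 9.46 ± 1.18 to 24.8 ± 0.57 CPM (SD, n = 2), by 1.39 on the log2 scale (SE 0.17). The other tudor domain genes were not called. Tdrd1 stood at 0.01 and Tdrd9 at -0.32, each with 45 to 85 reads per library, and Rnf17 at -0.34 with 3460 to 4789 reads.

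Asz1, a mitochondrial anchor of the pathway, had 41.9 and 25.0 CPM in shScramble and 22.3 and 9.91 CPM in shYthdf2. Its fitted value of -1.06 was larger than that of Piwil2, but with a standard error of 0.34 it was not called. It passed in 5 of 12 other fits, and stood at -1.76 when shYthdf2 replicate 1 was left out and at -0.59 when replicate 2 was. For shScramble replicates 1 and 2 these values were -0.63 and -1.38. Tex19.1, which restrains transposons and had the highest level per length of this role, had 168 and 94.3 CPM in shScramble and 142 and 83.3 CPM in shYthdf2. The libraries sharing a replicate number were close and the groups overlapped (-0.22, SE 0.27), and the sign turned to 0.26 without shScramble replicate 1 and to 0.11 without shYthdf2 replicate 2. Gtsf1 stood at -0.45, Stk31 at -0.06 and Fkbp6 at -0.05, and none of these was called. Gm52195 overlaps Gtsf1 on the opposite strand.

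Of the 6 spermatogenic genes 2 were called lower, with a median of -0.36. Usp26 (X chromosome, 51752667 to 51801233, minus strand), a deubiquitinase of the testis, had 96.0 and 91.9 CPM in shScramble and 33.0 and 29.4 CPM in shYthdf2. The means were 94.0 ± 2.91 and 31.2 ± 2.55 CPM (SD, n = 2), which left 33.2% of the control level (-1.59 on the log2 scale, SE 0.12). Brdt, the testis member of the BET bromodomain family, had 11.8 and 7.90 CPM in shScramble and 4.30 and 4.13 CPM in shYthdf2 (-1.23, SE 0.26). Without shScramble replicate 1, the higher control, it stood at -0.90 and did not pass. Slc25a31, an ADP/ATP carrier of male germ cells, stood at -0.52 with overlapping groups, and Tex14, needed for the bridges between germ cells, at -0.20 with 1885 to 2409 reads per library. Taf7l, an X-linked part of the transcription machinery, stood at 0.00 with 761 and 521 reads in shScramble and 880 and 431 in shYthdf2. Tex101, a surface protein of germ cells, had 23 and 3 reads against 32 and 13. These 4 genes were not called, and Tex101 was too low for its value of 0.79 (SE 0.83) to be read.

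The called members lay on many chromosomes. Chromosome 15 held the most members, 5, of which Smc1b, Dmc1 and Mov10l1 were called lower and Mei1 and Gtsf1 were not. The X chromosome held 3, of which Usp26 and Tex11 were called lower and Taf7l was not.

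The 2 libraries of a group also differed from each other in a shared way. Replicate 1 was above replicate 2 in both groups for 24 of the 43 tested members (55.8%), against 30.7% of all tested genes. In 4 of them (9.30%, against 3.08% of all tested genes) the gap was at least 0.5 on the log2 scale in both groups. Such a gap the other way was seen in 0 members, but its share over all genes was not counted, so nothing is read from it. The 4 genes were Asz1, with gaps of 0.75 in shScramble and 1.17 in shYthdf2, Tex19.1 with 0.84 and 0.77, Sycp2 with 0.51 and 0.92, and Tex101 with 2.75 and 1.37. Their names were picked after their values were seen, and the labels name no batch behind the numbers. Within replicate number 1 the median log2 difference of the members between the groups was -0.39, and within number 2 it was -0.48.

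**Figure D3:**
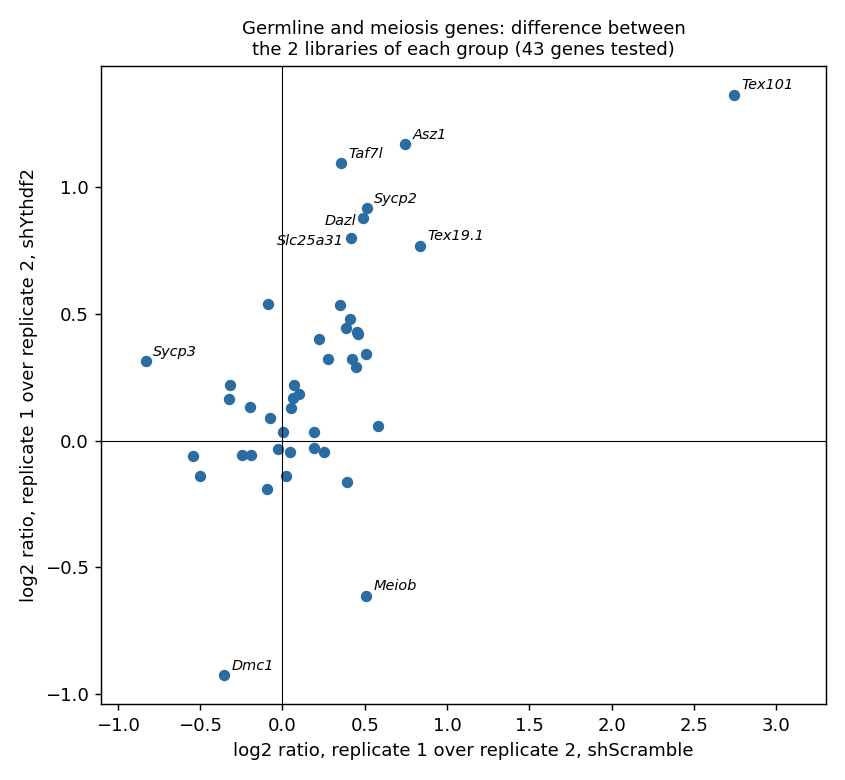
Log2 ratio of replicate 1 over replicate 2 for each of the 43 tested genes, shScramble on the x axis and shYthdf2 on the y axis. Most genes, 24 of 43, lie in the upper right part, where replicate 1 is higher in both groups, with Asz1 and Tex19.1 at 0.75 and 0.84 on the x axis, and Dmc1 lies at the bottom left with -0.35 and -0.93.

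Other genes of the same roles, which are no members, were listed from general knowledge. Of these 88 genes 70 were tested, 4 passed as lower and 0 as higher in edgeR, where 1.49% and 2.43% of all tested genes passed. At an unadjusted p under 0.05 there were 16 lower and 2 higher, where 9.80% and 11.0% of all tested genes lay under it. DESeq2 called 8 lower and 0 higher, and its share over all genes was not counted. Counts with a library left out are given in the last section. Their log2 fold changes were negative in 46 and positive in 24, with a median of -0.24. By role the median was -0.72 for the axis and synaptonemal complex, -0.30 for spermatogenic genes, -0.23 for identity and entry, -0.05 for recombination and -0.01 for the piRNA pathway.

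The 4 that passed came from 3 of the roles. 4930447C04Rik (Six6os1), a central element gene of the synaptonemal complex, had 1459 and 1276 reads in shScramble and 836 and 898 in shYthdf2 (-0.71, SE 0.13, edgeR adjusted p = 0.020). Shoc1, which stabilises crossover intermediates, had 679 and 422 reads against 263 and 163 (-1.40, SE 0.28, edgeR adjusted p = 0.029). Both genes passed in all 12 other settings. Prdm14, a regulator of pluripotency and of primordial germ cells, had 2135 and 2039 reads against 1574 and 1469 (-0.51, SE 0.12, edgeR adjusted p = 0.049). Kit, the receptor of germ cell survival and migration, had 13284 and 11075 reads against 9397 and 8825 (-0.47, SE 0.11, edgeR adjusted p = 0.042). Kit did not pass without either shScramble library in turn, and Prdm14 did not pass without shScramble replicate 2 or with limma-voom. Nanos2, a gene of spermatogonia, and the spermatogenic genes Akap4 and H2bc1 had no read in any library. The protamine and transition protein genes Prm1, Prm2, Tnp1 and Tnp2, which pack sperm DNA, had at most 6 reads in a library.

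**Figure D4:**
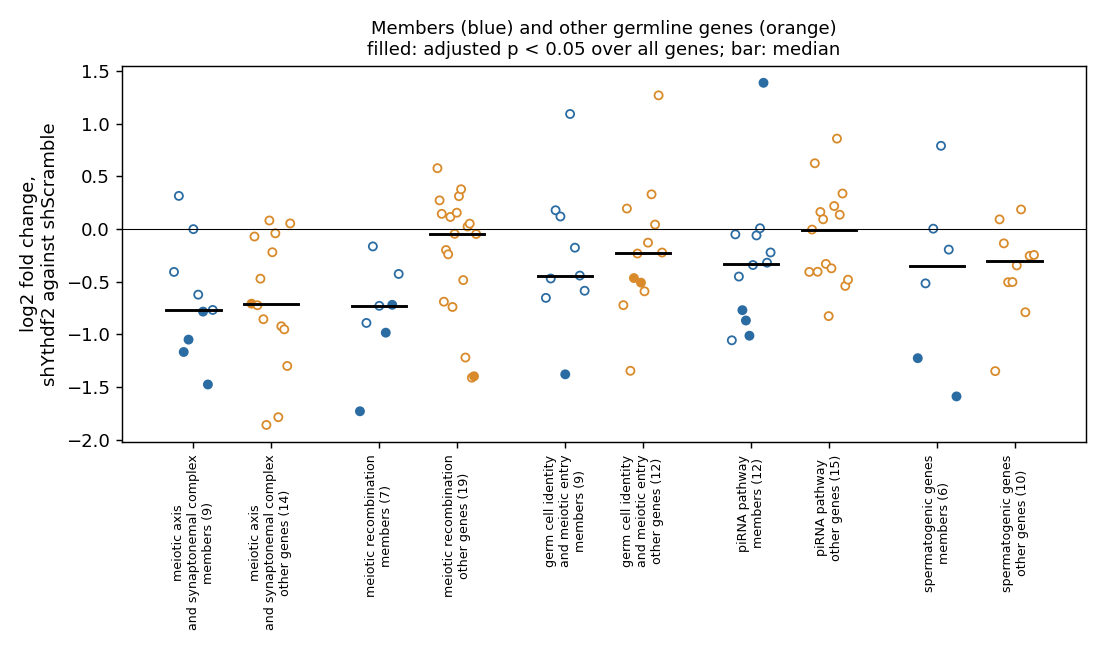
Log2 fold change of shYthdf2 against shScramble for the tested members (blue) and the other listed germline genes (orange), by role, with the number tested in brackets; filled marks passed the transcriptome-wide test and the bar is the median. Members and other genes have medians of -0.77 and -0.72 for the axis and synaptonemal complex, and of -0.73 and -0.05 for recombination.

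The regulators known to silence germline genes in ESCs were listed as well: subunits of PRC1.6, the DNA methylation machinery and histone H3 lysine 9 methyltransferases. Of the 20 genes, all tested, 0 passed in edgeR. Before adjustment, edgeR's p fell below 0.05 for 4 repressors with a rise and 3 with a fall. The matching shares of all tested genes were 11.0% and 9.80%. DESeq2 called 2, but its share over all genes was not counted, so these calls are not read as a result about the repressors. Their counts with a library left out stand in the last section. E2f6, the PRC1.6 subunit that reads the E2F motif, had 1728 and 1348 reads in shScramble and 1148 and 1202 in shYthdf2 (-0.43, SE 0.13, edgeR adjusted p = 0.087). Setdb1, a histone H3 lysine 9 methyltransferase, had 7165 and 5442 reads against 8165 and 8619 (0.37, SE 0.11, edgeR adjusted p = 0.094). These were the 2 that DESeq2 called, E2f6 as lower and Setdb1 as higher, and they are named for that. Dnmt1 stood at -0.07, Uhrf1 at -0.05 and Mga at -0.01, none called.

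Markers of other cells were set beside these values. The 2C-like cell is a rare ESC state in which genes of the 2-cell embryo are on. Of 24 such markers 21 were tested, 20 had a positive log2 fold change with a median of 1.42, and 6 were called higher. Their summed level was 81.0 and 117 CPM in shScramble and 173 and 427 CPM in shYthdf2, and Tdpoz1 had no read in any library. The shYthdf2 library with the higher 2C-like level, replicate 2, also had the lower summed level of the members. In shScramble likewise replicate 2 had more of the 2C-like markers and less of the members. Not every role followed. In replicates 1 and 2 the recombination members summed to 79.9 and 80.2 CPM in shScramble and to 44.5 and 47.7 CPM in shYthdf2. The sums of the other roles and of the ESC markers were lower in replicate 2 of both groups. Dazl, not called, had 393 and 280 CPM in shScramble and 277 and 151 CPM in shYthdf2. The part of the 2C-like shift in the members' values was not tested. The 9 markers of primordial germ cells, of which Prdm1, Nanos3, Dnd1, Dazl and Ddx4 are members, summed to 943 and 830 CPM in shScramble and 757 and 566 CPM in shYthdf2, most of it Dazl and Kit. These 9 did not move as a set, with 5 negative and 4 positive log2 fold changes. At an unadjusted edgeR p under 0.05, 4 were lower and 2 higher, where 9.80% and 11.0% of all tested genes lay under it. The trophoblast markers summed to 43.1 and 38.9 CPM in shScramble and 35.8 and 29.9 CPM in shYthdf2. Of their 8 tested genes 6 had a negative log2 fold change, with a median of -0.48. At an unadjusted edgeR p under 0.05, 3 were lower, as were 9.80% of all tested genes, but 0 were called. Like that of the members, their summed level was lower in both shYthdf2 libraries than in either control, and their part in the members' values was not tested. The summed levels of the primordial germ cell and fibroblast markers were lower in the same way. Primitive endoderm markers summed to 15.1 and 15.2 CPM in shScramble and 19.8 and 12.3 CPM in shYthdf2, with 0 called.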

How the data were processed

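RNA-seq of 4 ESC libraries was used, grouped by their titles. The authors deposited raw counts per gene, not normalized, made with featureCounts version 2.0.3 on RefSeq exons of mm10. The submitters' processing notes name fastp 0.19.4, HISAT2 2.2.1 and DESeq2 1.40.2. Per the file headers reads and not pairs were counted, without the strand option, so both mates add to a count and antisense genes share reads. There were 0 other columns of per-sample values. The floors cover counting error only. The standard errors come from the edgeR test and include the estimated variation between libraries.

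Counts were tested with edgeR 4.0.16 (R 4.3.3; quasi-likelihood F test, two-sided, TMM, filterByExpr with minimum count 10 and total 15, Benjamini-Hochberg over 18341 genes). The biological coefficient of variation was 15.8%. The test was checked on simulated data. DESeq2 1.42.0, limma 3.58.1, other scalings and filters, halved counts, the replicate block and leaving out each library were alternatives. The members and gene lists were chosen with earlier results of these data known. Values in every library are given for members called in edgeR, members meeting the study's criteria, the member with the highest level per length in each role, and the 3 largest rises and falls at a mean of at least 1 CPM. Levels per kilobase of the listed genes used exon bases on the main chromosome. The median over all tested genes used the deposited exon length. No protein sequences were used here.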

Additional observations from a re-analysis of the deposited data

How the results depend on the processing

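Of the 14 called members, Stag3, Smc1b, Dmc1, Tex11, Meioc, Piwil2, Mael, Mov10l1, Tdrd12 and Usp26 passed in all 12 other fits. Sycp1 did not pass with limma-voom or without shScramble replicate 1, Sycp2 with RLE or library total scaling, and Tex15 and Brdt without shScramble replicate 1. The count of members lower was 12 to 19 under the other tools, scalings, filters and halved counts, 8 by the study's criteria (2 higher), and 13 to 21 leaving out each library, with 21 without shYthdf2 replicate 1. Their median log2 fold change ranged from -0.66 (without shYthdf2 replicate 1) to -0.39 (without shScramble replicate 1). Tex19.1 ranged from -0.66 to 0.26 leaving out each library, reversing to 0.26 without shScramble replicate 1 and to 0.11 without shYthdf2 replicate 2. Of the 29 tested members not called, 14 passed in at least 1 other fit, Sohlh2 in 8, Stra8 in 6, Asz1 and Syce2 in 5 each. The other germline genes called lower numbered 8 with DESeq2, 9 with no filter and 4 to 10 leaving out each library (10 without shYthdf2 replicate 1, 7 without shYthdf2 replicate 2), and those called higher 0 to 1. The repressors called numbered 2 with DESeq2, 1 with no filter and 0 to 4 leaving out each library (4 without shYthdf2 replicate 2). Where a library was left out, the lone library of that group was assumed to vary like the other group, and the cause of these shifts was not tested. Outside the main fit, the study's criteria and the replicate block, the share of all genes called was not counted. Counts from those fits are therefore not read as a result about the listed genes.

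The groups share the replicate numbers 1 and 2, but with only 2 pairs the numbers are no more than names. The deviations from the group means correlated between same-numbered libraries with r = 0.225 over 18341 genes, which are not independent replicates. With the replicate block, 25 members were lower and 2 higher, 16 of the other germline genes were lower and 2 higher, and 6 repressors were called. The block raised calls throughout: 9.13% of all tested genes were then called lower and 10.1% higher.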
